A study of Mus musculus with 7 samples.

Results

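*Lhfpl3*, *Brinp1*, *Brinp2*, *Brinp3* and *C1ql1* were followed in the nuclei of cultured BB-p53n OPCs, the mutant oligodendrocyte progenitor cells that the study injects into mice to form proneural gliomas. The 5 genes were taken by symbol from the 33696 genes of the deposited single-nucleus matrix, selected on levels and cluster patterns seen in an earlier look at the same nuclei, and the question was how their transcripts were distributed over nuclei and how they related to transcripts of *Pdgfra* and *Egfr*. BB-p53n OPCs are primary OPCs of *Trp53* fl/fl C57BL/6 pups of either sex, purified with an antibody to PDGFRα (CD140a) and infected with a retrovirus that carries PDGFB together with Cre, so every cell that took up the virus was meant to lack *Trp53* and to make PDGFB. They were sequenced in culture as 1 library with no replicate and no control culture, and the tumor samples of the study were not analysed here. Of 10047 barcodes, 8917 (88.8%) had 2000 to 8000 detected genes and were kept as nuclei, with a median of 13771 UMIs, or counted transcript molecules, per nucleus (3153 to 52240).

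*Lhfpl3* belongs to the LHFPL family of small proteins with tetraspan membrane topology and is widely used as a marker of OPCs in single-cell atlases. The BRINP genes encode a family of neural proteins that were first described as inducible by bone morphogenetic protein and retinoic acid and that slow cell division when overexpressed. *C1ql1* encodes a secreted protein of the C1q-like family that binds the adhesion receptor encoded by *Adgrb3* and is known at synapses of climbing fibers in the cerebellum. *Pdgfra* encodes the receptor for PDGF that defines OPCs, and *Egfr* encodes a growth factor receptor that is high in earlier glial progenitors. Only RNA in nuclei was counted, so whether a protein reached the cell surface was not measured.

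Promoter windows, which run from 250 bases before to 50 bases after a RefSeq start, were available for 3 of the 5 genes, and they are shown because the transcripts of *Lhfpl3*, *Brinp1* and *Brinp3* shared their highest clusters, as given further on. Capitals mark CANNTG, the E-box letters read by basic helix-loop-helix factors, a pattern that reads the same on both strands. The windows are those of build GRCm38.p6, at chr5:22745804-22746103 on the plus strand for *Lhfpl3*, chr4:68954348-68954647 on the minus strand for *Brinp1*, and chr1:146495379-146495678 and chr1:146497437-146497736 on the plus strand for the first and the last (later) of the 3 *Brinp3* starts.
*Lhfpl3*: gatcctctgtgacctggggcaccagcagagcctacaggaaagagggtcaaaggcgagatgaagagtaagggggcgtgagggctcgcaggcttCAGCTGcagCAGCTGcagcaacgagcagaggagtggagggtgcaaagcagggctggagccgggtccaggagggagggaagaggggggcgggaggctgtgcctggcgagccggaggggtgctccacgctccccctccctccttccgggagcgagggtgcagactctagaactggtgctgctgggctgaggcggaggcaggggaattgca
*Brinp1*: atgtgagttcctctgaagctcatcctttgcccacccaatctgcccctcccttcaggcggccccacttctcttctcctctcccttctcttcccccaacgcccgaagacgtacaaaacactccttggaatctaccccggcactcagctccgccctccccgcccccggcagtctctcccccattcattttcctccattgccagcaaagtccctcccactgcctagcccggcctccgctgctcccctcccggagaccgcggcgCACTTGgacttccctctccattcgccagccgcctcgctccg
*Brinp3*, first start: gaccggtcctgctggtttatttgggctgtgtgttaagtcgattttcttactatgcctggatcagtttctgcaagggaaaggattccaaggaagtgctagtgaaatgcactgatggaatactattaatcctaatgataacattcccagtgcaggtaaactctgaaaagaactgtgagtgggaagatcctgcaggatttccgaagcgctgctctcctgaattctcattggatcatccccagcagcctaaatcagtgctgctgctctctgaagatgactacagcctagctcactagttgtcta
*Brinp3*, later start: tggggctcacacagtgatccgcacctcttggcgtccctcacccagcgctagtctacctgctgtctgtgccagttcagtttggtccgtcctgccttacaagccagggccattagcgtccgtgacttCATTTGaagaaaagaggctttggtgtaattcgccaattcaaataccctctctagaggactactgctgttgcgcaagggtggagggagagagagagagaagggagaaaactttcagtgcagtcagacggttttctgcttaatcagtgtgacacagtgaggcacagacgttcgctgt
The *Lhfpl3* window held 2 E-boxes, both with the letters CAGCTG, the *Brinp1* window held 1, and the *Brinp3* windows held 0 at the first start and 1 at the later start. Among all 32851 windows of the table, 72.3% held at least 1 E-box, so these counts set none of the genes apart. Neither TATAAA nor the SOX core ACAAT was found on either strand of the windows of the 3 genes, against 13.6% and 31.0% of all windows. The *Lhfpl3* and *Brinp1* windows were rich in G and C, at 66.0% and 63.3%, while the first *Brinp3* window had 45.3%, against a median of 52.7% over all windows.

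*Lhfpl3* was among the most abundant transcripts of these nuclei. It had 275587 UMIs, or 1953 CPM (counts of the gene scaled to a common total of UMIs; 95% exact Poisson interval 1945 to 1960), and only 27 genes had more. All intervals in the text are exact 95% intervals and cover counting error only, not the spread between cultures. Those of levels and ratios take every UMI as independent, so they also leave out the spread between nuclei. The gene has 4 exons and spans 530 kb of chromosome 5 from 22951057 to 23480611 on the plus strand (GRCm39). *Brinp3* followed with 58120 UMIs, or 412 CPM (408 to 415), and 319 genes had more. It spans 410 kb of chromosome 1 from 146370498 to 146780462 on the plus strand. *Brinp2*, on the minus strand of the same chromosome from 158072777 to 158184051, was at 107 CPM (105 to 109). *Brinp1*, on chromosome 4 (68679528 to 68873150, minus strand), was at 49.6 CPM (48.5 to 50.8). *C1ql1*, a gene of 7.86 kb and 2 exons on chromosome 11 (102829755 to 102837610, minus strand), had the lowest count with 5147 UMIs, or 36.5 CPM (35.5 to 37.5).

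The order changed once gene length was taken into account, because nuclear RNA holds introns and long genes collect more of it. Per kilobase of gene span, *C1ql1* was at 4.64 CPM and *Lhfpl3* at 3.69, while *Brinp3* was at 1.00, *Brinp2* at 0.961 and *Brinp1* at 0.256. On the same scale *Pdgfra* was at 5.46 CPM per kilobase and *Egfr* at 0.365, so that *C1ql1* and *Lhfpl3* lay nearer to *Pdgfra* than the BRINP genes did. Noncoding genes overlap both of the longest members. Within *Lhfpl3*, 6030443J06Rik on the same strand had 2707 UMIs and the antisense genes Gm42948 and A930003O13Rik had 1392 and 444. Antisense to *Brinp3*, Gm29514 had 2388 UMIs, Gm15584 had 461 and A230059L01Rik had 402. These were small beside the counts of the 2 members, and how reads were divided between overlapping genes was not tested.

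Distributions over nuclei were compared after thinning 8760 nuclei at random to 5000 UMIs each, since a deeper nucleus shows more genes (157 shallower nuclei were left out). A UMI of *Lhfpl3* was found in 83.2% of nuclei (82.4 to 84.0), with a median of 9 UMIs and a highest value of 53. *Brinp3* was found in 47.6% (46.5 to 48.6), *Brinp2* in 34.6%, *Brinp1* in 17.5% and *C1ql1* in 15.8%. Without thinning the shares were 86.1%, 56.0%, 62.7%, 34.7% and 33.5%, so *Brinp2* overtook *Brinp3* once depth was not held equal. *Brinp2* was spread thinly over many nuclei, whereas *Brinp3* was concentrated in fewer nuclei with several UMIs each.

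The variance over nuclei divided by the mean, which is 1 for counts scattered evenly, was 6.17 for *Lhfpl3* and 5.42 for *Brinp3*, against 1.75 for *Brinp1*, 1.38 for *C1ql1* and 1.30 for *Brinp2*. This measure grows with the level of a gene, and its excess over 1 divided by the mean gave another order, with 2.93 for *Brinp1*, 2.05 for *Brinp3*, 1.87 for *C1ql1*, 0.618 for *Brinp2* and 0.548 for *Lhfpl3*. Relative to its mean, *Lhfpl3* was thus the least uneven member. *Lhfpl3* had 0 UMIs in 1468 nuclei, 1 UMI in only 337 and 10 to 19 UMIs in 3064, so the counts formed a group at 0 and a broad group around the median. *Brinp3* had 0 UMIs in 4592 nuclei, 1 UMI in 900, 2 to 4 UMIs in 1614, 5 to 9 in 1252, 10 to 19 in 381 and 20 or more in 21. The tenth of nuclei with the most UMIs of a gene held 47.3% of all *Brinp3* UMIs and 26.2% of all *Lhfpl3* UMIs.

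**Figure D1:**
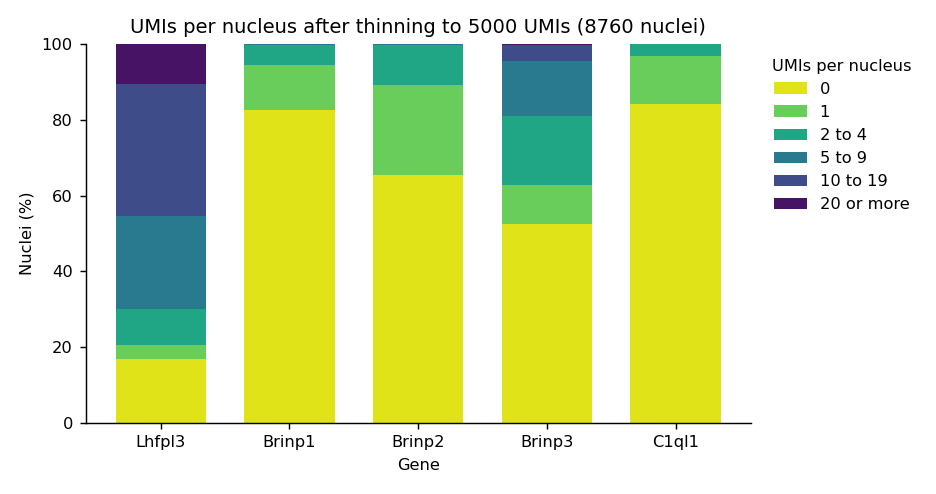
UMIs of each gene per nucleus after thinning to 5000 UMIs, as the percent of 8760 nuclei (y axis) in 6 classes of UMI number (colors) for the 5 genes (x axis). *Lhfpl3* has most nuclei at 5 UMIs or more, *Brinp3* is split between 0 and several UMIs, and the other 3 genes are mostly at 0 or 1 UMI.

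Nuclei with several of these transcripts were common, and nuclei with none of them were nearly all of one kind. At 5000 UMIs, 930 nuclei (10.6%) had a UMI of 0 members, 2051 of 1, 2873 of 2, 2101 of 3, 720 of 4 and 85 of all 5. The nuclei were divided into 8 clusters from 3000 variable genes, which included the members, so levels by cluster are a description and not a test. Nuclei with no member made up 53.8% of cluster 1 and 0.198% of the nuclei outside it. Cluster 1, with 1733 nuclei, is led by *Adm*, *Grin2a* and *Tsix*, and 90.9% of its nuclei had *Xist* and no Y-linked transcript.

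*Lhfpl3* was high in 6 clusters, lower in cluster 7 and lowest in cluster 1. It was at 3116 CPM in cluster 0, 2633 in cluster 3, 2208 in cluster 2, 1941 in cluster 5, 1909 in cluster 4, 1726 in cluster 6, 1012 in cluster 7 and just 123 in cluster 1. Only clusters 5 and 4 were neighbors in this order with overlapping intervals. The level in cluster 0 was 25.3 times that in cluster 1 (24.3 to 26.3). In clusters 0, 2, 3, 4, 5 and 6 between 98.4% and 99.8% of thinned nuclei had a UMI of *Lhfpl3*, in cluster 7, the smallest with 182 nuclei and led by *Bnc2*, *Arhgap24* and *Trpm3*, 80.4% had one, and in cluster 1 18.8% (17.02 to 20.8) had one.

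*Brinp3* divided the nuclei along another line. It was at 1160 CPM in cluster 0, which is led by *Nrg3*, by Gm29514 (antisense to *Brinp3* itself) and by *Gabra3*, and at 900 CPM in cluster 3, which is led by *Ralyl*, *Tafa1* and *Tafa2*. Clusters 5 and 7 were at 375 and 359 CPM, with overlapping intervals, and cluster 1 was at 94.3. The lowest levels were 59.2 CPM in cluster 4, 33.8 in cluster 6 and finally 20.2 in cluster 2, which are clusters with high *Lhfpl3* and *Pdgfra*. Cluster 0 was thus 57.4 times above cluster 2 (52.0 to 63.4) in *Brinp3*. A UMI of *Brinp3* was found in 94.3% of thinned nuclei of cluster 0 and in 92.1% of cluster 3, against 4.87% of cluster 2, 8.97% of cluster 6 and 14.1% of cluster 4.

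In clusters 0 and 3 together *Brinp3* was 27.8 times as high as in clusters 2, 4 and 6 together (26.5 to 29.1), a grouping chosen after the levels were seen. Over the same groups the ratio was 1.48 for *Lhfpl3*, 1.76 for *Brinp1*, 3.52 for *C1ql1*, 0.828 for *Brinp2* and 0.730 for *Pdgfra*, so *Brinp3* differed far more than any other member and *Brinp2* went with *Pdgfra* the other way. With nuclei restricted to those with *Pdgfra* and without *Egfr*, *Brinp3* was at 1169 CPM in the 1617 nuclei of cluster 0 and at 16.6 CPM in the 1286 nuclei of cluster 2, a ratio of 70.5 (63.1 to 79.0). The level of *Pdgfra* in these same nuclei was 343 and 355 CPM, a ratio of 0.967 (0.936 to 0.999). In these 2 clusters, nuclei with nearly equal *Pdgfra* thus had *Brinp3* at very different levels. Nuclei with *Pdgfra* and without *Egfr* lay between them in clusters 5 and 7, at 402 and 365 CPM of *Brinp3*. Cluster 5 had the highest median doublet score, 0.195, as given further on. Both *Xist* and a Y-linked transcript were found in 16.9% of its nuclei, against 5.08% in cluster 1. The part of barcodes that mix nuclei in its *Brinp3* level was not tested.

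Cell cycle phase, scored from S and G2/M genes, differed between these clusters, and its part in the division in *Brinp3* was not tested. Cluster 2 had 66.8% of its nuclei in G1, cluster 4 had 92.96% in G2/M, and cluster 6 had 52.4% in G2/M and 36.0% in S, while cluster 0 was spread over all phases. In cluster 0 *Brinp3* was at 1011 CPM in G1, 1117 in S and 1283 in G2/M, and in cluster 3 at 805, 934 and 933. In cluster 2 it was at 20.02 CPM in G1 and 21.6 in S, in cluster 6 at 27.7, 27.6 and 38.8 CPM in G1, S and G2/M, and in cluster 4 at 55.3 in its 951 nuclei in G2/M and 142 in its 72 nuclei in G1. Every phase of clusters 0 and 3 was above every phase given for clusters 2, 4 and 6, in clusters that *Brinp3* itself helped to form. Transcripts of the 4 Y-linked genes moved with the same division, since they were at 106 CPM in cluster 0 and 323 in cluster 3 but at 7.10, 12.7 and 7.14 in clusters 2, 4 and 6, and their part in the result was not tested. Within cluster 0, *Brinp3* was at 1169 CPM (1148 to 1189) in nuclei with a Y-linked transcript and no *Xist* and at 1163 (1145 to 1181) in nuclei with neither, and within cluster 3 at 899 and 884. Inside the low clusters it did move with the Y-linked genes. In cluster 2 it was at 108 CPM (91.6 to 126) in 81 nuclei with a Y-linked transcript and no *Xist* against 13.4 (11.7 to 15.2) in 1254 with neither, in cluster 4 at 239 (218 to 262) in 111 against 38.8 (35.9 to 41.9) in 873, and in cluster 6 at 82.4 (65.6 to 102) in 55 against 28.5 (25.3 to 31.9) in 610. These levels lay below those just given for clusters 0 and 3. *Brinp3* helped to form these clusters, so nothing is read from that order.

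*C1ql1* had its peak in one cluster. It was at 135 CPM in cluster 3, 54.1 in cluster 7, 34.6 in cluster 0, 30.9 in cluster 5, 24.0 in cluster 6, 22.3 in cluster 2, 18.1 in cluster 4 and just 4.33 in cluster 1. Intervals overlapped between clusters 0 and 5 and between clusters 6 and 2. Cluster 3 was 3.91 times above cluster 0 (3.61 to 4.23), although *Lhfpl3* and *Brinp3* were lower there than in cluster 0, with ratios of 0.845 and 0.775. A UMI of *C1ql1* was found in 48.9% of the thinned nuclei of cluster 3, in 20.7% of cluster 7, in 15.7% of cluster 0 and in 1.82% of cluster 1.

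*Brinp1* and *Brinp2*, which share a family with *Brinp3*, did not share its pattern. *Brinp1* was highest in cluster 3 at 87.6 CPM and in cluster 0 at 75.9, between 40.2 and 56.7 in clusters 2, 4, 5 and 6, and low at 12.02 in cluster 7 and at 4.69 in cluster 1. *Brinp2* varied least, with 152 CPM in cluster 7, 149 in cluster 6, 138 in cluster 4, 125 in cluster 0, 119 in cluster 2, 112 in cluster 5, 87.3 in cluster 3 and, lowest, 30.7 in cluster 1. The first 3 of these were neighbors with overlapping intervals, as were clusters 0, 2 and 5. From the lowest to the highest cluster the ratio was 4.96 for *Brinp2* and 18.7 for *Brinp1*, against 25.3, 31.2 and 57.4 for *Lhfpl3*, *C1ql1* and *Brinp3*. Of the members, 4 of 5 differed at least 10-fold between their extreme clusters, beside 11.0% of the 14531 genes with at least 100 UMIs and 3.55% of the genes with at least as many UMIs as *C1ql1*. With the members, *Pdgfra* and *Egfr* kept out of the clustering, 8 clusters were found again and the ratios were 25.9 for *Lhfpl3*, 19.2 for *Brinp1*, 4.98 for *Brinp2*, 55.7 for *Brinp3* and 31.7 for *C1ql1*.

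**Figure D2:**
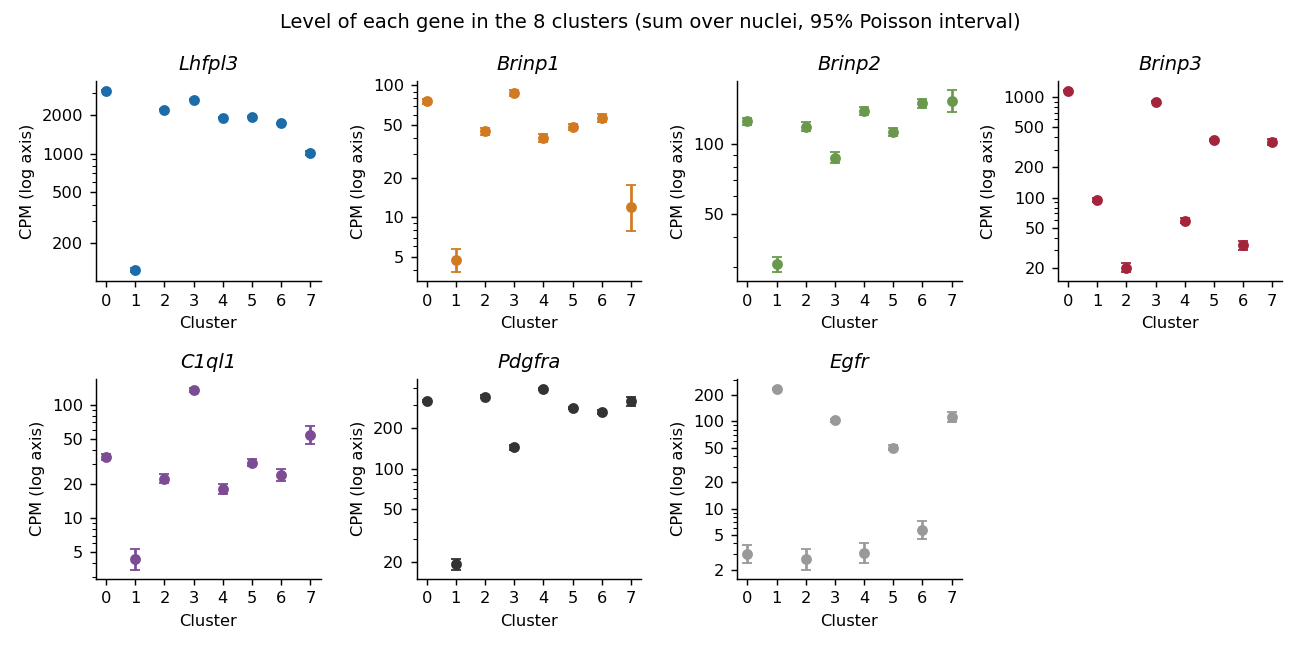
Level of the 5 genes, *Pdgfra* and *Egfr* in CPM (y axes, log scale, one panel per gene) in clusters 0 to 7 (x axes), from UMIs summed over the nuclei of each cluster, with 95% exact Poisson intervals as bars. *Lhfpl3* is low in cluster 1 alone by a wide margin, *Brinp3* is high in clusters 0 and 3 and low in clusters 2, 4 and 6, and *C1ql1* is highest in cluster 3.

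No nuclei known to lack the members are in this library, so the level that free RNA could give was gauged with 2 other transcripts, and they gave different marks. In cluster 1, where most nuclei had *Xist* and the median depth was 11623 UMIs, the Y-linked genes were at 0.0960 of their level in the whole library, and 2.47% of thinned nuclei (5.48% unthinned) had a UMI of them. *Egfr* was at 0.0439 to 0.0514 of its library level in clusters 0, 2 and 4 and at 0.0942 in cluster 6. *Lhfpl3* in cluster 1, at 0.0631 of its library level, *Brinp1* there, at 0.0946, and *Brinp3* in cluster 6, at 0.0821, lay between the marks, and *Brinp3* in cluster 2, at 0.0491, lay at the lower one. *C1ql1* in cluster 1, at 0.119, and *Brinp2* and *Brinp3* there, at 0.287 and 0.229, were above both. The low level of *Lhfpl3* in cluster 1 was also uneven over nuclei, as the classes by receptor gene show further on, and the part of free RNA in the lowest values was not tested.

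Seen jointly, *Lhfpl3* and *Brinp3* gave 3 large groups of nuclei. At 5000 UMIs both had a UMI in 3795 nuclei (43.3%), *Lhfpl3* alone in 3497 (39.9%), neither in 1095 (12.5%) and *Brinp3* alone in 373 (4.26%). Nuclei with both made up 94.1% of cluster 0 and 91.3% of cluster 3, nuclei with *Lhfpl3* alone made up 94.5% of cluster 2, 89.4% of cluster 6 and 84.7% of cluster 4, and 61.8% of cluster 1 had neither. The group with *Brinp3* alone came mostly from cluster 1, which held 329 of its 373 nuclei. Among nuclei with a UMI of *C1ql1*, 71.5% also had *Brinp3*, against 43.1% of nuclei without. *Lhfpl3* was found in 98.6% of nuclei with *Brinp1*, 97.2% of those with *C1ql1*, 93.8% of those with *Brinp2* and 91.1% of those with *Brinp3*.

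**Figure D3:**
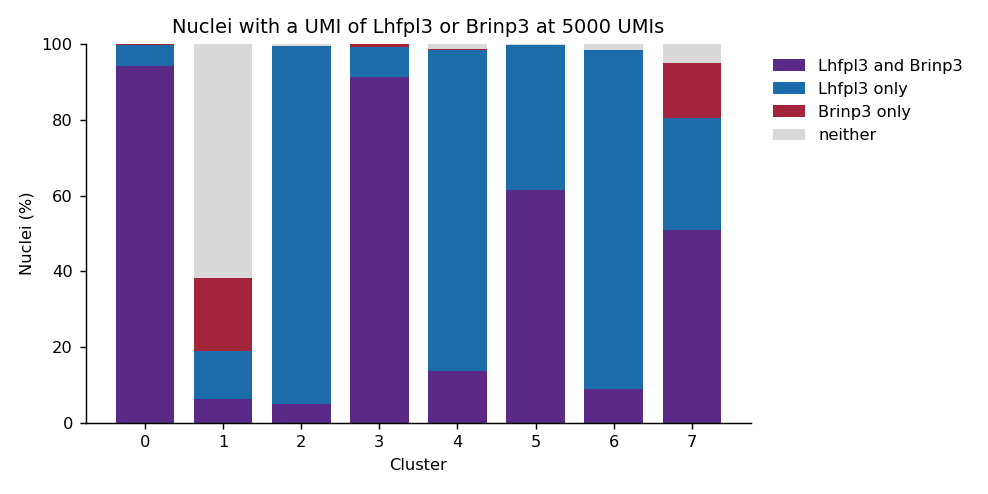
Percent of thinned nuclei (y axis) in each cluster (x axis) with a UMI of both *Lhfpl3* and *Brinp3*, of one of them, or of neither (colors). Clusters 0 and 3 are mostly nuclei with both, clusters 2, 4 and 6 mostly nuclei with *Lhfpl3* alone, and cluster 1 mostly nuclei with neither.

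To relate the members to the 2 receptor genes, nuclei were classed by whether they had any UMI of *Pdgfra* or *Egfr*. There were 5359 nuclei with *Pdgfra* only (median 14934 UMIs), 1217 with both (19026), 738 with neither (9379) and 1603 with *Egfr* only (11177). *Lhfpl3* was at 2342 CPM in nuclei with *Pdgfra* only, 1926 with both, 1475 with neither and 373 with *Egfr* only. *Brinp2* fell in the same order, at 127, 101, 75.7 and 35.4 CPM. *Brinp1* was at 56.1, 57.3, 40.2 and 13.7 CPM, with overlapping intervals for the first 2 classes. All 3 were lowest in nuclei with *Egfr* only.

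*Brinp3* and *C1ql1* did not follow *Pdgfra* in this way. *Brinp3* was at 434 CPM with *Pdgfra* only, 475 with both, 502 with neither and 193 with *Egfr* only. *C1ql1* was at 31.7, 59.7, 55.0 and 21.2 CPM in the same classes, so it was highest in nuclei with both receptors or with neither. These 2 classes hold a larger share of cluster 3 nuclei, at 36.0% and 30.2%, than the class with *Pdgfra* only, at 7.84%.

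**Figure D4:**
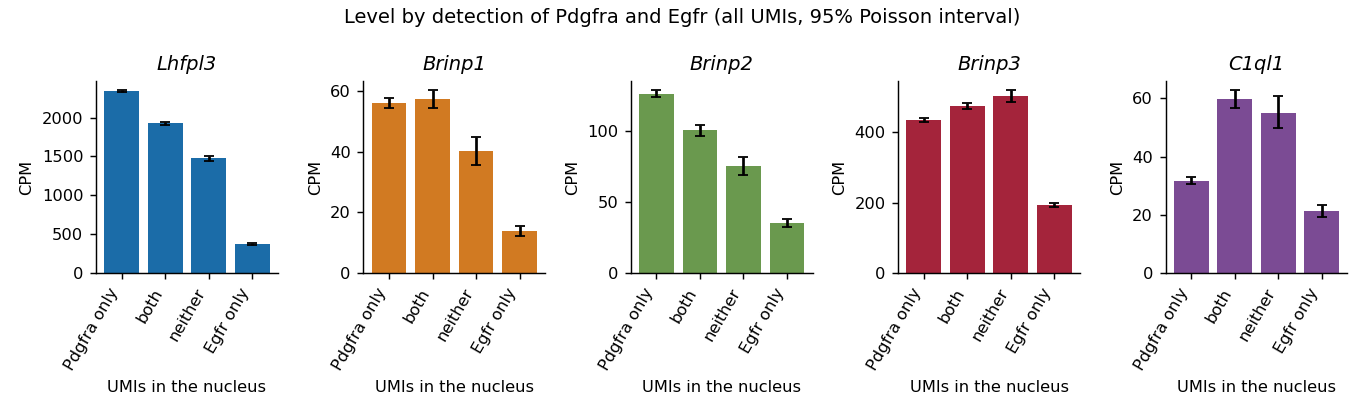
Level of each gene in CPM (y axes, one panel per gene, from 0) in nuclei with a UMI of *Pdgfra* only, both, neither or *Egfr* only (x axes), with 95% exact Poisson intervals as error bars. *Lhfpl3* and *Brinp2* step down across the classes from 2342 to 373 and from 127 to 35.4 CPM, while *C1ql1* is highest at 59.7 CPM in nuclei with both.

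Nuclei with *Pdgfra* only exceeded nuclei with *Egfr* only by 6.28 times in *Lhfpl3* (6.13 to 6.43), 4.08 in *Brinp1* (3.61 to 4.64), 3.58 in *Brinp2* (3.31 to 3.87), 2.25 in *Brinp3* (2.17 to 2.32) and 1.50 in *C1ql1* (1.35 to 1.66). At least 2-fold higher were 4 of the 5 members, beside 9.13% (10.3% at least 2-fold lower) of all 13885 genes with at least 100 UMIs in these nuclei and 7.85% of the genes with at least as many UMIs as *C1ql1*. Since the members were chosen with such results in view, nothing is read from their count. With classes and levels taken after thinning, the ratios were 3.84, 2.92, 2.71, 1.80 and 1.16 (0.998 to 1.36 for *C1ql1*), so that 3 members remained past 2-fold.

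A further cutoff on mitochondrial UMIs changed several of these values. Of the 8917 nuclei, 1954 had a mitochondrial share of no more than 5%. The nuclei that the study lists as left after its own filtering are equally many, so the nuclei described here are a wider set than the study's. In the 1954 nuclei *Lhfpl3* was at 2458 CPM, *Brinp3* at 734, *Brinp2* at 109, *Brinp1* at 65.1 and *C1ql1* at 55.5. The ratio of nuclei with *Pdgfra* only to those with *Egfr* only was 2.98 for *Lhfpl3* (2.87 to 3.10), 2.96 for *Brinp1*, 2.57 for *Brinp2*, 2.23 for *Brinp3* and 0.790 for *C1ql1* (0.667 to 0.940), which turned its direction. *C1ql1* was at 41.8 CPM with *Pdgfra* only, 95.1 with both, 82.3 with neither and 52.8 with *Egfr* only. For the 2 most abundant members, the clusters with the highest and the lowest level were those of the wider set. *Lhfpl3* was at 144 CPM in the 189 such nuclei of cluster 1 and at 3240 in the 695 of cluster 0. *Brinp3* was at 1173 in cluster 0 and 900.03 in cluster 3 against 16.1 in cluster 2. In clusters 4, 5 and 6 *Brinp3* was at 122, 514 and 76.4, above the 59.2, 375 and 33.8 of the wider set.

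The classes were spread unevenly over the clusters, which the members, *Pdgfra* and *Egfr* helped to form. The part of the clusters in the class ratios was not tested. Of the 1603 nuclei with *Egfr* only, 1293 (80.7%) lay in cluster 1 and 257 (16.0%) in cluster 3. Inside cluster 3 the nuclei with *Pdgfra* only exceeded those with *Egfr* only by 1.32 times in *Lhfpl3* (1.28 to 1.36), 1.26 in *Brinp2* (1.06 to 1.51), 1.22 in *Brinp1* (1.03 to 1.45) and 1.14 in *Brinp3* (1.09 to 1.20), while the *C1ql1* ratio was 1.06 (0.933 to 1.22). The *Egfr*-only nuclei of cluster 3 thus had *Lhfpl3* at 2135 CPM and *Brinp3* at 827 CPM, where the *Egfr*-only nuclei of cluster 1 had *Lhfpl3* at 42.8. In cluster 5, which has 23 nuclei with *Egfr* only, the *Lhfpl3* ratio of *Pdgfra* only to *Egfr* only was 1.59 (1.45 to 1.73). It was 1.48 there for *Brinp2*, 1.34 for *Brinp1*, 1.12 for *Brinp3* and 0.716 (0.427 to 1.29) for *C1ql1*. In cluster 1, *Lhfpl3* was at 404 CPM in the 25 nuclei with *Pdgfra* only and at 607 in the 151 with both. This compares with the 42.8 CPM in its 1293 nuclei with *Egfr* only. Barcodes that mix nuclei were not removed, and their part in these values was not tested.

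Graded by UMIs at equal depth, *Lhfpl3* rose with *Pdgfra* mainly at the first UMI and went down with each further UMI of *Egfr*. It was at 1302 CPM in thinned nuclei with 0 UMIs of *Pdgfra*, 2257 with 1, 2349 with 2, 2294 with 3 and 2499 with 4 or more. Along *Egfr* it was at 2128 CPM with 0 UMIs, 1109 with 1, 820 with 2, 628 with 3 and 378 with 4 or more. *Brinp2* was at 67.8 CPM with 0 and 133 with 4 or more UMIs of *Pdgfra*, and at 108 and 26.4 for the same classes of *Egfr*. *Brinp3* was at 382, 487, 486, 415 and 421 CPM over the 5 classes of *Pdgfra*, without a steady direction, and at 456, 377, 295, 269 and 225 CPM over those of *Egfr*. *C1ql1* was at 39.98 CPM with 0 UMIs of *Pdgfra*, 47.5 with 1, 40.03 with 2, 32.2 with 3 and 28.1 with 4 or more. Along *Egfr* it was at 39.2, 51.3, 40.4 and 44.3 CPM with 0 to 3 UMIs, and at 12.5 (5.72 to 23.7) with 4 or more.

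**Figure D5:**
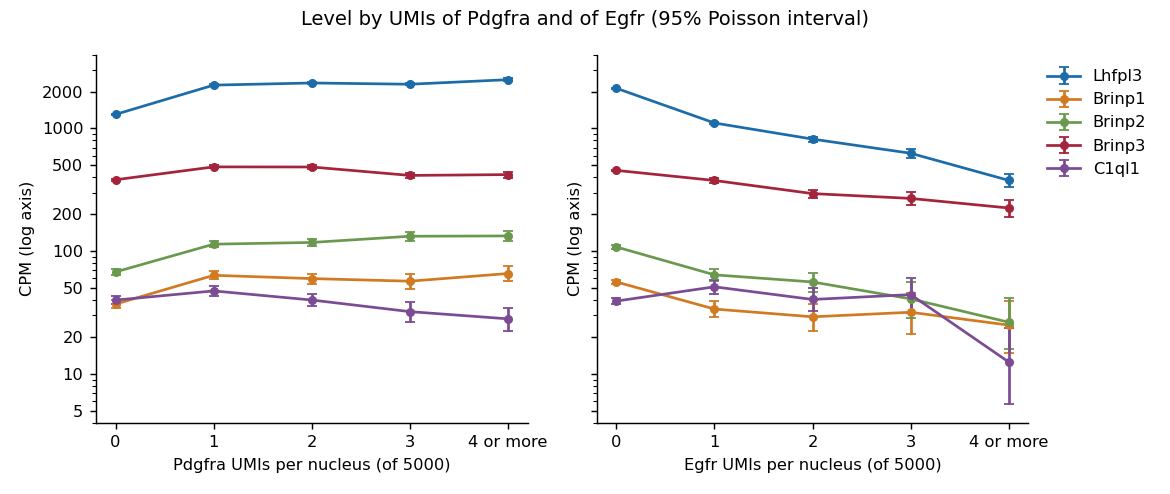
Level of the 5 genes in CPM (y axes, log scale) in nuclei thinned to 5000 UMIs, by their number of UMIs of *Pdgfra* (left x axis) and of *Egfr* (right x axis), with 95% exact Poisson intervals as bars. *Lhfpl3* goes from 1302 to 2499 CPM along *Pdgfra* and from 2128 to 378 along *Egfr*, while *Brinp3* changes little along *Pdgfra*.

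Within clusters most of these relations were small. The members, *Pdgfra* and *Egfr* were among the genes that formed the clusters. No UMI of *Pdgfra* was found in 42.6% of thinned nuclei, against 26.3% without thinning, so some nuclei counted as without it had it. Ratios near 1 can therefore not be read as the lack of a relation. Thinned nuclei with a UMI of *Pdgfra* had 1.78 times the *Lhfpl3* of nuclei without over the whole library, whereas inside the clusters the ratio ran from 0.996 in cluster 6 to 1.21 in cluster 5, with 6.78 (5.69 to 8.06) in cluster 1 alone. Its interval lay above 1 in 5 of 8 clusters. For *Brinp3* the interval lay above 1 in 3 clusters, for *Brinp2* in 2, for *Brinp1* in 1 and for *C1ql1* in 0. Nuclei of cluster 1 with *Pdgfra* were thus the exception, with *Lhfpl3* at 414 CPM in 87 nuclei against 61.0 in 1616 without. The part of barcodes that mix nuclei in this exception was not tested. With a UMI of *Egfr*, the *Lhfpl3* interval lay below 1 in 4 of 8 clusters, and the ratio over the whole library was 0.437.

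Correlations over the 8760 thinned nuclei are descriptions, since all nuclei share 1 library. Pearson's r of the log-normalized level of *Lhfpl3* was 0.44 with *Pdgfra* and -0.46 with *Egfr* (0.59 and -0.56 without thinning). *Brinp3* had r = 0.03 with *Pdgfra* and -0.06 with *Egfr*, and *C1ql1* had -0.01 and 0.002. Among the members the highest values were 0.35 between *Lhfpl3* and *Brinp3* and 0.22 between *Brinp3* and *C1ql1*, and the lowest were 0.004 between *Brinp2* and *C1ql1* and 0.05 between *Brinp2* and *Brinp3*. The BRINP genes therefore varied with each other less than *Brinp3* varied with *Lhfpl3*, although *Brinp1*, *Brinp2* and *C1ql1* are too sparse for a weak r to be read.

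The genes most like each member were ranked by r over the 7152 genes found in at least 10% of thinned nuclei. For *Lhfpl3* they were *Cntn1* (0.84), *Dcc* (0.79), *Pcdh15* (0.77), *Mmp16* (0.73) and *Opcml* (0.73), genes of adhesion molecules, a guidance receptor and a membrane protease. The least like it were *Xist* (-0.75), *Igfbp2* (-0.63) and *Igfbp4* (-0.61), the last 2 encoding binding proteins of insulin-like growth factors. For *Brinp3* the list was different, with *Sox9* (0.46), *Adarb2* (0.43), *Sox2ot* (0.43), *Nalf1* (0.42) and *Nrg3* (0.41) at one end and *Sparcl1* (-0.50), *Tpt1* (-0.48) and *Cd63* (-0.41) at the other. *Sox9* encodes a transcription factor of glial progenitors, and *Nrg3* a neuregulin. The lists of *C1ql1* (*Tafa2*, 0.26, and *Tafa1*, 0.25, first), *Brinp1* (*Kcnd2*, 0.23) and *Brinp2* (*Cntn1*, 0.24) rest on lower r.

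Relatives of the members did not all move with them. In the LHFPL family, 4 of 6 genes had at least 100 UMIs between nuclei with *Pdgfra* only and *Egfr* only. Beside the same 9.13% and 10.3% of all genes, *Lhfpl3* was the one at least 2-fold higher with *Pdgfra*, while *Lhfpl6* (ratio 0.133, 0.126 to 0.140) and *Lhfpl2* (0.332, 0.293 to 0.376) were at least 2-fold lower, and *Lhfpl4*, whose product holds GABA receptors at inhibitory synapses, was at 1.19 (1.08 to 1.31). *Lhfpl6* reached 206 CPM in cluster 1, where *Lhfpl3* was lowest, and stayed between 19.1 and 48.6 elsewhere. *Lhfpl1* and *Lhfpl5* had 15 and 37 UMIs in all.

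Of the C1q-like and cerebellin family with its receptors, 8 of 13 genes were measured in the class contrast, 5 were at least 2-fold higher with *Pdgfra* only and 0 lower, beside 9.13% higher and 10.3% lower of all genes, and the median ratio was 2.43 against 0.894. *C1ql3* was at 48.1 CPM in cluster 2 and 9.11 in cluster 0, so it was high where *C1ql1* was low among the nuclei with *Pdgfra*, and its ratio between the classes was 6.18 (5.06 to 7.63). *Adgrb3*, the receptor that C1q-like proteins bind, was at 1722 CPM and was found in 97.5% of thinned nuclei, from 867 CPM in cluster 1 to 2595 in cluster 7. *C1ql2*, *C1ql4*, *Cbln2*, *Cbln3* and *Cbln4* had between 4 and 23 UMIs each.

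Most OPC genes went with *Pdgfra* in the class contrast. Of 20 OPC genes 18 were measured in it beside *Pdgfra*, which defines it, and 12 were at least 2-fold higher with *Pdgfra* only and 0 lower, with a median ratio of 2.29, where 9.13% of all genes measured were higher and 10.3% lower. *Luzp2* (10.9), *Pcdh15* (8.81) and *Cspg4*, which encodes the NG2 proteoglycan (4.28), were among them. *Bcan*, which encodes the proteoglycan brevican, was at a ratio of 0.792 (0.762 to 0.824), *Susd5* at 0.898 (0.658 to 1.24) and *Epn2* at 1.29. Summed OPC genes were at 3076 CPM in cluster 1, where *Lhfpl3* was lowest, and between 8918 and 12519 elsewhere. Among the primitive OPC genes, *Dll3* (3.91) and *Dll1* (2.59) went with *Pdgfra* while *Sox11* (0.627) and *Hes6* (0.623) went with *Egfr*.

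The summed genes of neurons moved with the division in *Brinp3*, though not every gene of the list did, and their part in it was not tested. The 10 neuronal genes summed to 464 CPM in cluster 0 and 784 in cluster 3, against 226, 227 and 333 in clusters 2, 4 and 6, with 1059 in cluster 7 and 144 in cluster 1. Among them *Dcx*, a microtubule protein gene of young neurons, was at 70.6 and 98.96 CPM in clusters 0 and 3 and at 3.995, 5.21 and 2.61 in the same 3 low clusters. *Nrxn3* and *Syt1* made up most of the sums, and *Slc17a7* and *Gad2* had 14 and 13 UMIs in the library. *Syt1* was at 117 CPM in cluster 0 and 226 in cluster 3, but at 142 in cluster 6. *Gad1* was at 1.48 and 1.69 CPM in clusters 0 and 3, against 1.68, 1.17 and 1.34 in clusters 2, 4 and 6. *Rbfox3* was highest in cluster 1, at 15.8 CPM. Astrocyte genes did not follow the division as a list, with 317 CPM in cluster 0, 790 in cluster 3 and between 497 and 755 in the others. Most of the 790 CPM was *Slc1a3*, a glutamate transporter gene, at 423 CPM, whereas *Gfap* was at most at 1.79 in any cluster and *Aqp4* and *Gja1* had 4 and 6 UMIs in all. Myelin genes ran the other way from *Brinp3*, at 111 and 63.2 CPM in clusters 0 and 3 and at 310, 253 and 259.6 in clusters 2, 4 and 6. Microglial genes summed to between 6.32 and 16.2 CPM per cluster, endothelial genes to between 3.70 and 18.6 and fibroblast or pericyte genes to between 0.312 and 8.32, with *C1qa* and *Cldn5* at 0 UMIs.

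Depth and mitochondrial share moved with some of the members. Among the 2974 nuclei with the fewest UMIs *C1ql1* was at 60.1 CPM and *Brinp3* at 518, against 31.2 and 389 among the 2972 with the most, while *Lhfpl3* was at 1717 and 2087 and *Brinp2* at 79.0 and 119. Among the 2973 nuclei with the lowest mitochondrial share *Brinp3* was at 688 CPM, against 188 among the 2972 with the highest, and *Lhfpl3* was at 2365 against 1671. Clusters 0 and 3, where *Brinp3* was high, had 5.42% and 5.30% mitochondrial UMIs, and clusters 2, 4 and 6 had 7.23%, 6.70% and 7.31%. The part of depth and mitochondrial share in the levels was not tested. Cluster 5 stood apart with a median of 30276 UMIs per nucleus and a median Scrublet doublet score of 0.195, against at most 0.0371 in the other clusters, and without it the class ratio of *Lhfpl3* was 6.71.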

How the data were processed

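Nuclei of cultured BB-p53n OPCs were sequenced as 1 library with 10x chemistry. The values are the UMI counts that the authors deposited, not normalized, as Cell Ranger 8.0.1 gave them on the mm39 reference and before any cutoff on detected genes. Of the 7 samples listed, the 3 early-stage and 3 late-stage tumor samples were not analysed here. The members, gene lists and comparisons were chosen with earlier results of these data known.

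Barcodes with 2000 to 8000 detected genes were kept (141138093 of 154375410 UMIs). No cutoff on mitochondrial UMIs was applied except as an alternative. Levels (CPM) are UMIs summed over nuclei and scaled to a common total, with exact Poisson intervals. Shares of nuclei have Clopper-Pearson intervals, and ratios have the exact conditional binomial interval, all at 95%. Nuclei were thinned to 5000 UMIs with a fixed seed. With 1 library no test was run and no p-value is given. A gene counted in the class contrast when its UMIs in both classes together were at least 100. Gene spans came from GENCODE vM39 on GRCm39, the build of mm39, in which 33185 genes matched by Ensembl identifier, and *Lhfpl6* is listed under its older symbol *Lhfp*. Promoter windows came from RefSeq on GRCm38.p6 and were used without conversion.

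Clusters were made in Seurat 5.3.0 (R 4.3.3) from 3000 variable genes after log normalization (scale factor 1000) and regression on depth. The first 20 principal components fed a graph of 200 neighbors, cut at a resolution of 1. They were given no cell type name. Phases were scored with 42 S and 52 G2/M genes. The genes named are the members, *Pdgfra*, *Egfr*, the listed marker and family genes (some are not reported here), the 3 leading genes of each cluster by ratio to all other nuclei, the 5 genes of highest and 3 of lowest r with each member, the noncoding genes that overlap a member, and *Xist*. The Y-linked sum is of *Ddx3y*, *Uty*, *Kdm5d* and *Eif2s3y*. Scrublet in scanpy 1.11.5 called 0 nuclei as doublets, which is taken as a failed call, so none were removed. The ratios, intervals and thinning were tested on simulated data.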

Additional observations from a re-analysis of the deposited data

How the results depend on the processing

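With 1 library, every interval covers counting error only, and neither the spread between cultures nor the effect of the mutation could be measured. No paired analysis was possible because the replicate numbers in the labels belong to tumor samples that were not analysed here. Differences between the classes with *Pdgfra* only and *Egfr* only kept their direction under every alternative tried, except for *C1ql1* in nuclei whose mitochondrial share was no more than 5%, where the ratio was 0.790. There it was 2.98 for *Lhfpl3*, 2.96 for *Brinp1* and 2.57 for *Brinp2*. After thinning the ratios were 3.84, 2.92, 2.71, 1.80 and 1.16 for *Lhfpl3*, *Brinp1*, *Brinp2*, *Brinp3* and *C1ql1*, and with at least 2 UMIs asked of a class they were 8.02 for *Lhfpl3*, 4.89 for *Brinp1*, 2.46 for *Brinp3* and 1.75 for *C1ql1*. With 3000 to 7000 detected genes they were 6.63 for *Lhfpl3* and 2.37 for *Brinp3*. For *Lhfpl3* the ratio was 6.68 after removal of the 8% of nuclei highest in Scrublet score and 6.71 without cluster 5, an alternative chosen after seeing the data. The ratio of the highest to the lowest cluster grew with 20 neighbors, which gave 16 clusters, to 70.7 for *Lhfpl3*, 81.8 for *Brinp1*, 7.12 for *Brinp2*, 199.7 for *Brinp3* and 66.0 for *C1ql1*, and at a resolution of 0.4, with 6 clusters, it was 22.1 for *Lhfpl3* and 15.1 for *Brinp1*. The cause of these shifts was not tested, apart from the number of clusters that each setting gives. Genes past 2-fold in either direction were 19.4% of all genes and 24.4% when genes with at least 20 UMIs were counted. Across alternatives the level of *Brinp3* ran from 409 to 734 CPM, that of *Lhfpl3* from 1889 to 2458 and that of *C1ql1* from 36.0 to 55.5, each highest in the nuclei low in mitochondrial UMIs. Shares of nuclei moved with depth for all members.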

Other observations

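Barcodes outside the cutoffs on detected genes also had the members' transcripts. In the 918 barcodes with fewer than 2000 genes *Lhfpl3* was at 2199 CPM (2131 to 2270) and *Brinp1* at 61.5 (50.4 to 74.2). In the 212 barcodes with more than 8000 genes *Lhfpl3* was at 1751 CPM.

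Within cluster 2, *Lhfpl3* was at 2262 and 2200 CPM in nuclei with a Y-linked transcript and no *Xist* and in nuclei with neither, with overlapping intervals. In cluster 1, *Lhfpl3* was at 331 CPM (302 to 361) in 88 nuclei with both *Xist* and a Y-linked transcript and at 104 (99.1 to 108) in 1575 nuclei with *Xist* alone. Whether the 88 are barcodes that mix nuclei was not tested.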
